A study of Mus musculus with 4 samples.

Results

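The 10 enzymes and cofactors that write, copy or remove methyl groups on cytosine were followed in cultured mouse muscle stem cells (MuSC, satellite cells) with and without the arginine methyltransferase gene Prmt5. The members are Dnmt1, Dnmt3a, Dnmt3b, Uhrf1, Uhrf2, Tet1, Tet2, Tet3, Hells and Tdg, a list set by name for their known roles, with earlier results of these data known, and all 10 were found among the 20065 genes of the deposited RNA-seq table. All 10 also passed the filter on low values, with 46 to 6875 reads per library, and so are among the 16212 genes tested.

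The series holds 4 RNA libraries from satellite cells of limb and trunk muscles of adult C57BL/6 mice, sequenced after depletion of ribosomal RNA. The 2 Ctrl libraries come from Pax7CreERT2/Prmt5+/loxP (+TAM) cells and the 2 Prmt5sKO libraries from Pax7CreERT2/Prmt5loxP/loxP (+TAM) cells. Both groups thus carried the tamoxifen-inducible Cre recombinase driven by Pax7, a gene of satellite cells, and both were exposed to the inducer, so Ctrl cells had 1 floxed copy of Prmt5 as well. The study describes the cells used for RNA-seq as treated with 4-hydroxytamoxifen, which it used to delete Prmt5 in culture. RNA was measured in a whole culture, in which fewer cells of a kind and less RNA per cell cannot be told apart. The columns deposited give no replicate numbers, so the libraries are called the deeper and the shallower one of each group. No label states whether they came from separate animals. Xist levels, given below, differed between the libraries of each group as those of female and male cells do. All p-values measure the spread between these libraries only.

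The recovered reads summed to 14436914 and 13240754 in the deeper and shallower Ctrl libraries and to 20047430 and 16190414 in the Prmt5sKO libraries. Values are normalized counts, meaning reads per gene scaled to a common library size by the trimmed mean of M-values (TMM). As a check of the labels, Prmt5 stood at 2273 (deeper) and 2906 (shallower) normalized counts in Ctrl and at 244 and 202 in Prmt5sKO libraries, with a log2 difference of -3.52 ± 0.27 (SE). The deletion removes part of the gene, whereas the count covers all of it. The satellite cell markers Pax7, at 2570 to 3664 normalized counts, and Myod1, at 12152 to 15548, were present in all 4 libraries. Of markers of other cells, the myeloid genes Itgam and Cd68 had 0 to 22.1 and 50.3 to 112 normalized counts, the endothelial genes Cdh5 and Pecam1 0 to 14.3 and 10.1 to 62.2, and the fibroblast genes Dpt and Pdgfra 0 to 6.48 and 17.1 to 44.1, while the leukocyte gene Ptprc had no row. Cd68 (99.4 and 112 in Ctrl, 54.8 and 50.3 in Prmt5sKO) and Pecam1 (40.7 and 62.2 against 27.4 and 10.1) were lower in both Prmt5sKO libraries, and their part in the results was not tested. Of 14 such markers 12 had a row, and they summed to 511 to 4349 per library. Rgs5, listed here as a pericyte marker, ranged from 128 in the shallower Ctrl library to 4163 in the shallower Prmt5sKO library, and the endothelial gene Kdr had 67.8 and 59.7 in Ctrl against 19.3 and 17.1 in Prmt5sKO libraries. The libraries of a group were not alike in every respect. The 26 muscle differentiation genes summed to 70016, 111256 and 68499 normalized counts in 3 libraries and to 555326 in the shallower Prmt5sKO library, and Xist, the RNA that coats an inactive X chromosome, had 8668 and 23.3 in the deeper and shallower Ctrl libraries against 8.15 and 5655 in the Prmt5sKO libraries.

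DNA methylation in mammals is placed mainly on cytosines that precede a guanine (CpG). After replication the new strand lacks the mark: UHRF1 reads the hemimethylated site and brings in DNMT1, which copies the methyl group, while the remodelling ATPase HELLS opens chromatin to the methyltransferases. DNMT3A and DNMT3B set new marks, the TET dioxygenases oxidise 5-methylcytosine using 2-oxoglutarate, and the glycosylase TDG cuts out the oxidised bases for repair. In dividing cells Dnmt1 and Uhrf1 are expressed with the genes of S phase, and in satellite cells DNA methylation is known for its part in keeping lineage and timing differentiation.

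The promoters are shown first because 3 members hold a sequence word that the others lack. RefSeq gives 15 windows for the 10 genes (GRCm38.p6, 250 bases before to 50 after each annotated start), and these were searched on both strands for 4 words of the E2F type, the site known from promoters of S-phase genes: TTTCCCGC, TTTCGCGC, TTTGCCGC and TTTGGCGC. No 2 matches overlapped. A window of Dnmt1, one of Uhrf1 and the window of Hells held such a word. The other windows of Dnmt1 and Uhrf1 and the windows of the other 7 members held none. Over all 32851 RefSeq windows the share with at least 1 of the words was 2.26%, and it was 4.73% among the 13006 windows with at least 12 CpG. Counted by gene symbol, the share with a word in any window was 2.6%. Of the 43 S-phase genes described below, 32 had a window, and 13 of these (40.6%) held a word. All 43 were lower in both Prmt5sKO libraries (23.6% of all genes tested), so lower genes also occur without a word. The words were chosen with the expression values known, a match is only a match of letters, and no protein binding was measured. Capitals mark the words found, either way round; Dnmt1 lies at chr9:20952574-20952873 (minus strand), Uhrf1 at chr17:56304063-56304362 (plus strand) and Hells at chr19:38930740-38931039 (plus strand), each printed 5′ to 3′ along the gene.
Dnmt1: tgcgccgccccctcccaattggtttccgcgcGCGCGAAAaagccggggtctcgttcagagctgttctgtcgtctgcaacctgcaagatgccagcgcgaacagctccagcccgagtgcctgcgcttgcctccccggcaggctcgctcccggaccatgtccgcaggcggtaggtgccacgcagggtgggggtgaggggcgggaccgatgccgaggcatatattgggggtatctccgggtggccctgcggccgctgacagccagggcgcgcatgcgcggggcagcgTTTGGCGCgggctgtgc
Uhrf1: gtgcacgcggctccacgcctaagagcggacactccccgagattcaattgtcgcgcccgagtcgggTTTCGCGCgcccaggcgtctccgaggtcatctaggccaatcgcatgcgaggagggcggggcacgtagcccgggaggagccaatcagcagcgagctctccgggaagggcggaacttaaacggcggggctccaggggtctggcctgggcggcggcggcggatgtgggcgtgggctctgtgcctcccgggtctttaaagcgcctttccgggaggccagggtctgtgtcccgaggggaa
Hells: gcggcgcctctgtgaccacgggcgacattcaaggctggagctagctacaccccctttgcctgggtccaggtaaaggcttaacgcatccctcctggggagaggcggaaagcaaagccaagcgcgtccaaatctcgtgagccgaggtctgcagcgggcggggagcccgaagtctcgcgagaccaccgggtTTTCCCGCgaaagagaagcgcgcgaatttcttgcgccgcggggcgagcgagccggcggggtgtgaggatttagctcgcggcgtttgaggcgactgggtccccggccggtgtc
In the Dnmt1 window TTTCGCGC was found on the opposite strand at bases 32 to 39 and TTTGGCGC on the gene's own strand at bases 284 to 291, past the annotated start. This window is that of the most downstream annotated Dnmt1 start. The other Dnmt1 windows, chr9:20952930-20953229 and chr9:20959839-20960138, lie upstream of it, so both words are downstream of their starts. In Uhrf1 TTTCGCGC lay 185 bases before the start, and in Hells TTTCCCGC lay 62 bases before it. TTTCGCGC, seen in both Dnmt1 and Uhrf1, is in 0.32% of all windows, TTTCCCGC in 1.07%, TTTGGCGC in 0.51% and TTTGCCGC in 0.44%.

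Every member had at least 1 CpG-rich window. Against a median of 7 CpG in all windows, the richest window of each member held from 17 CpG in Tet1 to 57 in Tet2, and the 3 windows with a word held 33 in Dnmt1, 33 in Uhrf1 and 34 in Hells. Tet2, the member with the smallest difference between the groups, is printed as the contrast, with its CpG in capitals. Its window, chr3:133544341-133544640 (minus strand), had more CpG than 99.8% of all windows.
Tet2: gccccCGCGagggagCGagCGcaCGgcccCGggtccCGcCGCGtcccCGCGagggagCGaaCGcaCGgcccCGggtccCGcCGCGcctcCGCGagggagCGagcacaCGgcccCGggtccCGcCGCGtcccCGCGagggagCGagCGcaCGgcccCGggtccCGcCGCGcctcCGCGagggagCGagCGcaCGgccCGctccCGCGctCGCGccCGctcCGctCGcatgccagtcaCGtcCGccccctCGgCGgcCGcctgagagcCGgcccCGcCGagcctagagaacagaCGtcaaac

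In Prmt5sKO cells the maintenance machinery was at 39.3% to 44.2% of its Ctrl level, while the estimates of the other members lay nearer to Ctrl. With 2 libraries a group these estimates were imprecise. The 95% intervals of Tet1, Tet3 and Dnmt3b took in a decrease like that of Dnmt1. Uhrf1 stood at 39.3%, Dnmt1 at 41.8%, Hells at 44.2% and Tet3 at 56.8% of the Ctrl mean, and the other 6 members at 69.0% (Tet1) to 95.1% (Tet2). All 10 log2 fold changes were negative, where 48.6% of all genes tested had a negative value, and their median was -0.45 against 0.02 over all genes. Of the 10 members, 8 had both Prmt5sKO values below both Ctrl values (23.6% of all genes tested), 0 were higher in both (25.2% of all genes), and Uhrf2 and Tet2 overlapped. An unadjusted p under 0.05 in the lower direction was given by limma-voom to 4 members (6.95% of all genes), and in the higher direction to 0 members (6.01% of all genes).

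No member passed the threshold set for a call, an adjusted p of at most 0.05 (Benjamini-Hochberg) with at least a 2-fold change. That call was made for 0 of the 16212 genes (0%), Prmt5 included, with a smallest adjusted p of 0.193, although the unadjusted p of limma-voom was under 0.05 for 2101 genes. This count belongs to limma-voom without a block. The study, which used DESeq2, did report genes at a false discovery rate under 0.05, and its test was not repeated. For a single gene, an exact permutation test of 2 against 2 libraries cannot give a two-sided p below 0.333. A replicate block that crossed the libraries by depth called 346 genes in limma-voom, with an adjusted p of 0.0324 for Dnmt1, 0.0275 for Uhrf1, 0.0401 for Hells and 0.0110 for Prmt5, each over 2-fold, while the block that paired the deeper libraries called 0. The labels do not say which pairing, if either, holds, but the crossed one joins libraries with like Xist levels. The differences below are therefore described with their size and error.

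**Figure D1:**
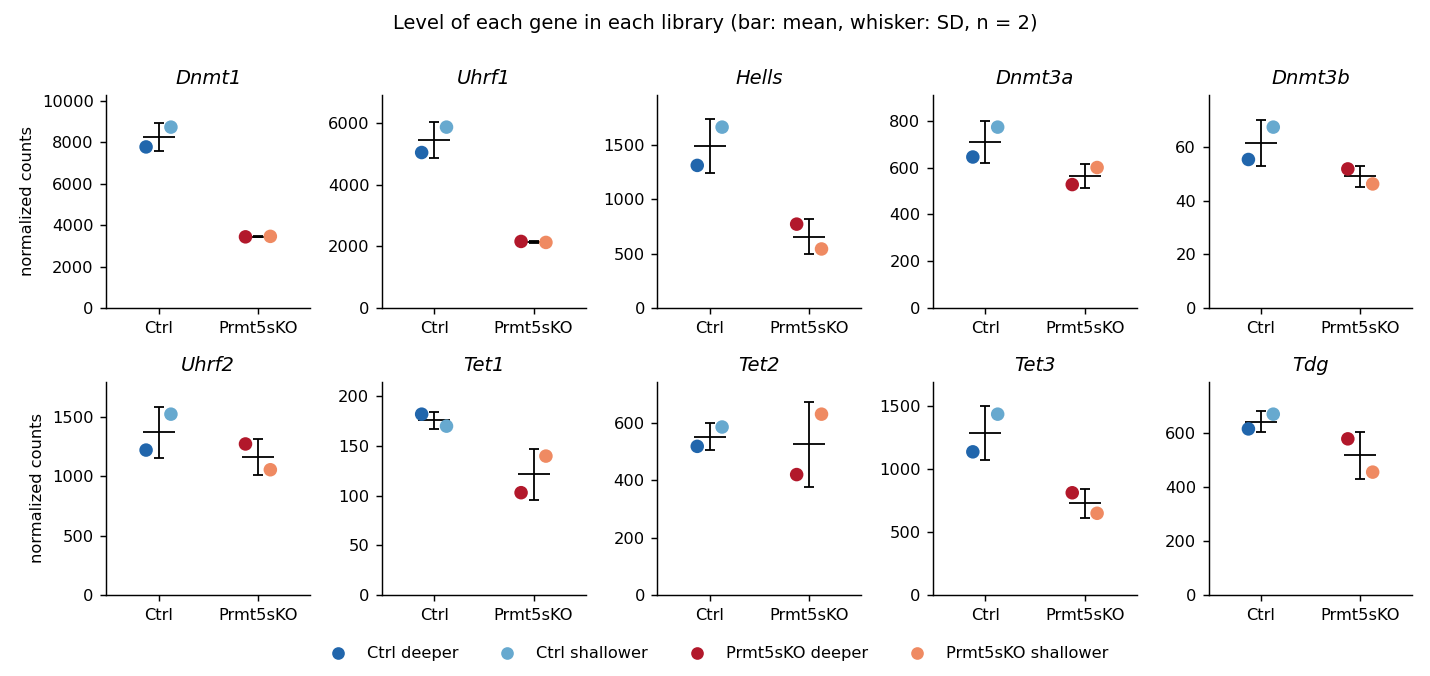
Normalized counts of the 10 genes in the 4 libraries, 1 panel per gene with its own axis from 0; blue points are Ctrl and red points Prmt5sKO libraries (darker: deeper), bars are means and whiskers SD (n = 2). For Dnmt1 the Ctrl points lie at 7769 and 8724 and the Prmt5sKO points at 3434 and 3458, while for Uhrf2 and Tet2 the groups overlap.

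The maintenance trio came first. For Dnmt1 (ENSMUSG00000004099, chr9:20907209-20959888, GRCm38), the deeper Ctrl library had 7769 and the shallower 8724 normalized counts, and the Prmt5sKO libraries had 3434 and 3458; below, the deeper library is always named first. The groups did not overlap, and the difference between them was several times that between libraries of a group. Its log2 fold change was -1.26 ± 0.20 (SE; 95% interval -1.74 to -0.77), with an adjusted p of 0.203 in limma-voom. Of all genes tested, 6.04% had a lower log2 fold change.

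Uhrf1 (ENSMUSG00000001228, chr17:56303321-56323486), whose protein recruits DNMT1, had 5038 and 5861 normalized counts in Ctrl and 2158 and 2126 in Prmt5sKO libraries. As with Dnmt1, the Prmt5sKO libraries were nearly equal and both far under the lower Ctrl library. The log2 fold change was -1.34 ± 0.20 (SE; 95% interval -1.84 to -0.85; adjusted p = 0.203, limma-voom), the largest decrease among the members.

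Hells (ENSMUSG00000025001, chr19:38930915-38971051) had 1311 and 1663 normalized counts in Ctrl and 771 and 543 in Prmt5sKO libraries, so the groups did not overlap but spread more than those of Dnmt1. Its log2 fold change was -1.18 ± 0.26 (SE; adjusted p = 0.248, limma-voom). The lower value was that of the shallower Prmt5sKO library, the one with the high differentiation genes. Without that library the log2 fold change of Hells was -0.93, and without the deeper Prmt5sKO library it was -1.44. For Dnmt1 the same values were -1.26 and -1.25, and for Uhrf1 -1.33 and -1.35. With the deeper Prmt5sKO library left out, the adjusted p became 0.0357 for Dnmt1, 0.0298 for Uhrf1 and 0.0428 for Hells, in a fit in which the lone library was assumed to vary like the Ctrl libraries. Over all 14 alternatives the adjusted p of Dnmt1 ranged from 0.0324 to 0.968, that of Uhrf1 from 0.0275 to 0.968 and that of Hells from 0.0401 to 0.968, and all 3 differences were negative under each of the 14.

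The estimated differences were smaller for the enzymes of new methylation. Dnmt3a (ENSMUSG00000020661, chr12:3806007-3914443) had 645 and 773 normalized counts in Ctrl and 528 and 600 in Prmt5sKO libraries. The groups did not overlap, but the gap between the nearest libraries was smaller than the distance within either group. The log2 fold change was -0.33 ± 0.23 (SE; 95% interval -0.89 to 0.23; adjusted p = 0.558, limma-voom).

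Dnmt3b (ENSMUSG00000027478, chr2:153649450-153687730) was the member with the fewest normalized counts, 55.4 and 67.4 in Ctrl and 51.9 and 46.3 in Prmt5sKO libraries, from 46 to 70 reads. At this depth the interval of the log2 fold change, -1.47 to 0.85 around -0.31, took in both no difference and a decrease like that of Dnmt1 (adjusted p = 0.798, limma-voom). The catalytically inactive partner Dnmt3l had no row in the table, nor had Dnmt3c, the rodent copy of Dnmt3b, so the 2 similar sequences could not be compared here.

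Uhrf2 (ENSMUSG00000024817, chr19:30030513-30093722), the relative of Uhrf1 with the same domains, did not share its difference. It had 1219 and 1521 normalized counts in Ctrl and 1271 and 1054 in Prmt5sKO libraries, with the deeper Prmt5sKO library between the Ctrl libraries. The log2 fold change was -0.23 ± 0.23 (SE; 95% interval -0.79 to 0.32; adjusted p = 0.674, limma-voom). This interval ended above the estimate for Uhrf1, -1.34, but no test of one gene against the other was made.

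Among the dioxygenases Tet3 (ENSMUSG00000034832, chr6:83362373-83459084) had the clearest difference, with 1136 and 1434 normalized counts in Ctrl and 811 and 649 in Prmt5sKO libraries. The groups did not overlap. The log2 fold change was -0.81 ± 0.24 (SE; 95% interval -1.39 to -0.22; adjusted p = 0.299, limma-voom). Leaving out the shallower Prmt5sKO library gave -0.65, and leaving out the deeper one gave -0.97.

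Tet1 (ENSMUSG00000047146, chr10:62804570-62908996) had 182 and 170 normalized counts in Ctrl and 103 and 140 in Prmt5sKO libraries. Both Prmt5sKO values were below both Ctrl values, with a log2 fold change of -0.58 ± 0.35 (SE; adjusted p = 0.510, limma-voom).

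Tet2 (ENSMUSG00000040943, chr3:133463679-133545139) had 518 and 585 normalized counts in Ctrl and 419 and 630 in Prmt5sKO libraries, so the Prmt5sKO libraries lay on either side of the Ctrl libraries. Its log2 fold change was -0.11 ± 0.28 (SE; 95% interval -0.81 to 0.58; adjusted p = 0.877, limma-voom). The direction turned with the library: the value was 0.20 without the deeper and -0.39 without the shallower Prmt5sKO library. The higher value belonged to the library with the high differentiation genes, and the part of differentiation in it was not tested.

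Tdg (ENSMUSG00000034674, chr10:82629828-82650799), which removes the products of the TET enzymes, had 617 and 672 normalized counts in Ctrl and 580 and 457 in Prmt5sKO libraries. The groups did not overlap, by a narrow margin, and the log2 fold change was -0.31 ± 0.24 (SE; 95% interval -0.90 to 0.28; adjusted p = 0.594, limma-voom). The opposite-strand gene Glt8d2 overlaps Tdg and had 29 to 83 reads, and B230319C09Rik, opposite Tet3, had 41 to 92. Whether the counting used strand is not given in the sources used here, so reads in these stretches cannot be assigned with certainty, but they are few beside the 454 to 783 reads of Tdg and the 645 to 1106 of Tet3.

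**Figure D2:**
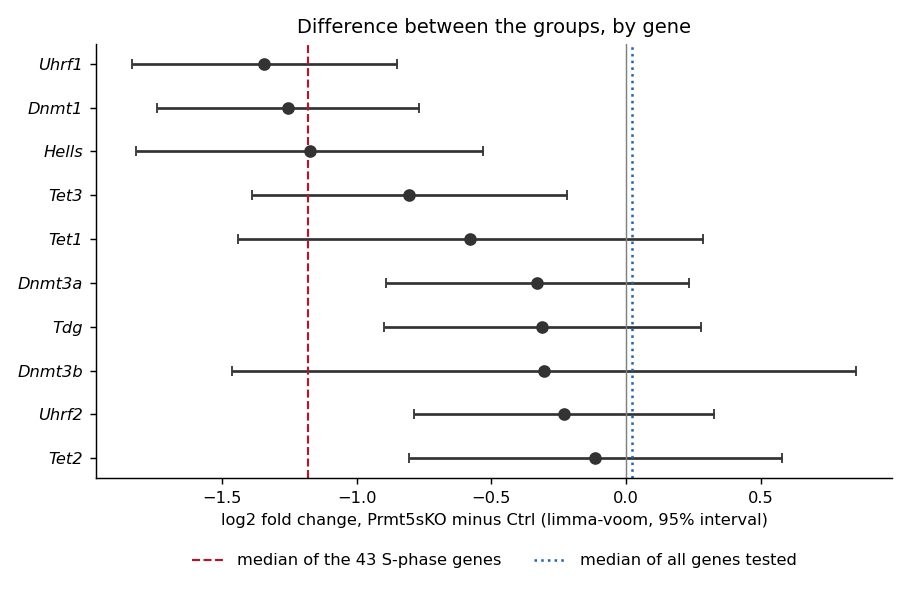
Log2 fold change of each of the 10 genes (points, Prmt5sKO minus Ctrl) with its 95% interval from limma-voom, ordered by size. The intervals of Uhrf1, Dnmt1, Hells and Tet3 lie below 0, and the points of Uhrf1, Dnmt1 and Hells lie near the dashed line, the S-phase median of -1.18; the dotted line is the median of all genes, 0.02.

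Set on one scale, normalized counts per kilobase of exon, the RNAs of the maintenance pair were far above the rest. In Ctrl libraries Uhrf1 had 1279 ± 137 (SD, n = 2) and Dnmt1 1118 ± 91.5, followed by Hells with 206 ± 34.5, Uhrf2 with 160 ± 24.9, Tdg with 120 ± 7.21 and Tet3 with 77.0 ± 12.6. Dnmt3a with 42.6 ± 5.42 and Tet2 with 32.7 ± 2.82 came next, and Dnmt3b with 12.03 ± 1.67 and Tet1 with 11.4 ± 0.55 were last. The ranges of Dnmt3b and Tet1 overlapped, and Uhrf1 and Dnmt1 differed by about the distance between the Ctrl libraries. The place of Dnmt1 was above 92.9% of all genes tested and that of Tet1 above 17.7%, over the 4 libraries. Exon lengths were those of all annotated exons of a gene together, and isoforms in use may be shorter.

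In Prmt5sKO libraries Uhrf1 had 503 ± 5.35 and Dnmt1 467 ± 2.25 (per kilobase, SD, n = 2). Hells, with 91.2 ± 22.4, no longer followed them: Uhrf2 with 135 ± 17.8 stood above it, and Tdg with 96.5 ± 16.3 overlapped with it. Tet3 with 43.7 ± 6.89 was above Dnmt3a with 33.9 ± 3.10 in each library, while Dnmt3a and Tet2, with 31.1 ± 8.81, overlapped. Dnmt3b with 9.61 ± 0.78 and Tet1 with 7.85 ± 1.68 were again at the end.

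The makeup of each family moved with these differences. Dnmt1 made up 95.5% and 95.2% of the summed level per kilobase of the 3 methyltransferases in the Ctrl libraries and 91.8% and 91.2% in the Prmt5sKO libraries, and the share of Dnmt3a was 3.52% and 3.74% against 6.25% and 7.02%. The ratio of Uhrf1 to Uhrf2 per kilobase was 8.33 and 7.77 in Ctrl and 3.43 and 4.07 in Prmt5sKO libraries. The summed methyltransferases stood 9.98 and 9.44 times above the summed Tet genes in Ctrl and 6.33 and 6.03 times in Prmt5sKO libraries. In all of these the groups did not overlap. The ratio of Dnmt1 to Uhrf1 was 0.890 and 0.859 against 0.919 and 0.939, also without overlap but over a narrow range, and that of Hells to Dnmt1 was 0.173 and 0.195 against 0.230 and 0.161, which overlapped.

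Tet3 held 61.6% and 65.3% of the summed Tet level per kilobase in Ctrl libraries and 60.7% in the deeper Prmt5sKO library. In the shallower Prmt5sKO library it held 45.6%, beside 43.8% for Tet2, so there the Tet2 and Tet3 levels were almost equal. Tet2 held 26.4% to 31.0% in the other 3 libraries. Tet1 stayed between 8.32% and 10.7% in all 4.

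**Figure D3:**
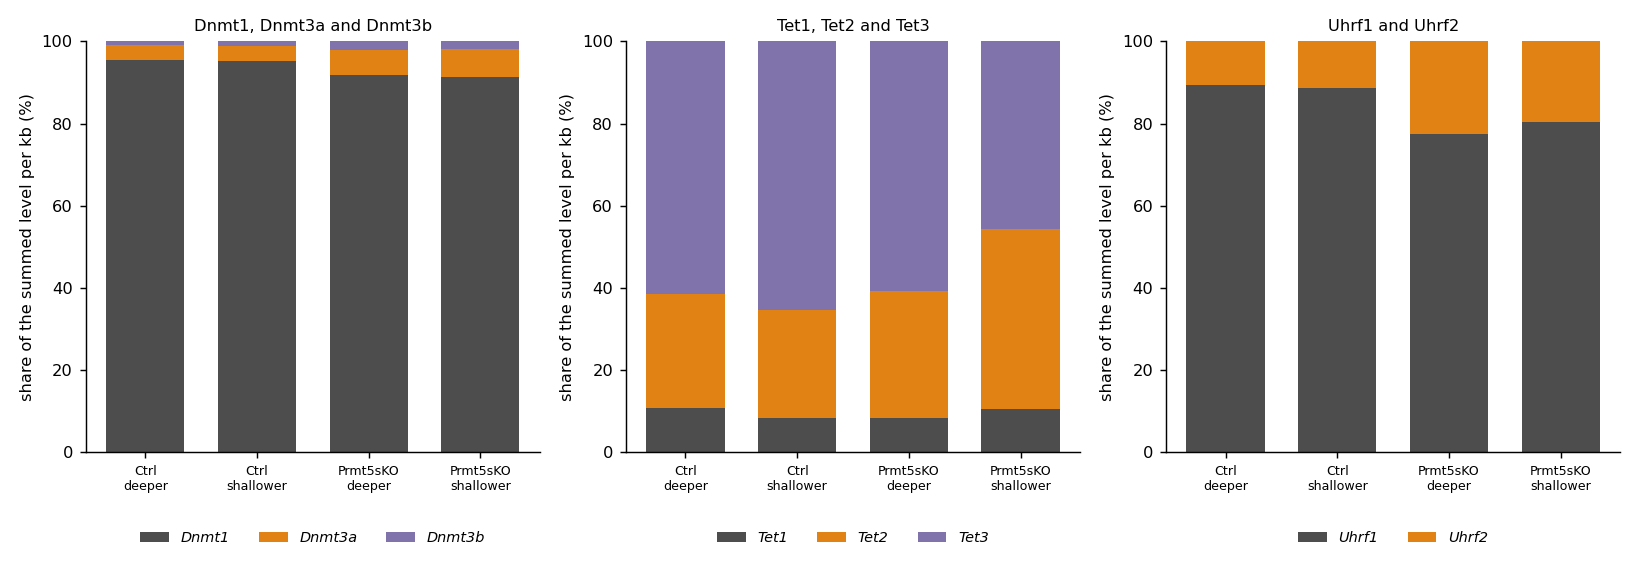
Share of each gene in the summed level per kilobase of its family (vertical axis, %), for the 3 methyltransferases, the 3 Tet genes and the 2 Uhrf genes, with 1 stacked bar per library. The Dnmt1 share goes from 95.2 to 95.5% in Ctrl to 91.2 to 91.8% in Prmt5sKO libraries, and only the shallower Prmt5sKO library has nearly equal Tet2 and Tet3.

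The levels of the maintenance trio were next set against 43 genes of S phase (licensing, fork and nucleotide supply), a list that holds no member. It was chosen with earlier results of these data known, so its shared direction is a description. Pcna is not in it and is given below with the partner genes, where its groups overlapped. All 43 were lower in both Prmt5sKO libraries (23.6% of all genes tested), 39 with an unadjusted limma-voom p under 0.05 (6.95% of all genes in this direction), and their median log2 fold change was -1.18. The 4 with the smallest p were Chaf1b (-1.91), Clspn (-1.70), Pold1 (-1.59) and Pole (-1.72), which serve chromatin assembly, the replication checkpoint and DNA synthesis.

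Taken relative to the mean log2 level of these 43 genes in the same library, Dnmt1 was at 2.86 and 2.88 in Ctrl and at 2.93 and 2.76 in Prmt5sKO libraries. On this scale the difference of Dnmt1 was -0.02 in place of -1.26, that of Uhrf1 was -0.11 and that of Hells 0.04, and all 3 overlapped between the groups. The reference genes were themselves lower in Prmt5sKO libraries, so any gene with a fold change near theirs must show little difference here. These values restate the fold changes and are not a separate result. The other 7 members were higher relative to the S-phase genes in both Prmt5sKO libraries than in both Ctrl libraries, by 0.42 for Tet3, 0.68 for Tet1, 0.91 for Dnmt3a and Tdg, 0.92 for Dnmt3b, 1.00 for Uhrf2 and 1.14 for Tet2. On that scale 80.7% of all genes tested were higher in both, so 7 of 10 is not more than the background share. The fold changes of Dnmt1, Uhrf1 and Hells lay near the S-phase median, and no count of S-phase cells in the cultures sequenced is given. In a separate assay, the study reported that fewer Prmt5sKO than Ctrl cells in culture took up EdU, a label of newly made DNA. The part of such a difference in the levels of the members was not tested.

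**Figure D4:**
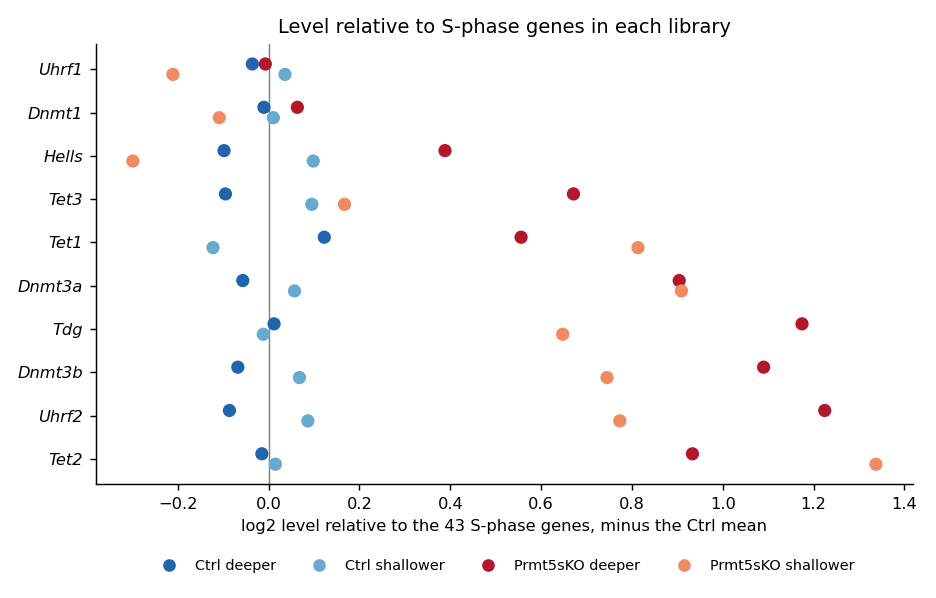
Log2 level of each of the 10 genes relative to the mean of 43 S-phase genes in the same library, minus its Ctrl mean (horizontal axis), with 1 point per library (blue: Ctrl, red: Prmt5sKO; darker: deeper). Dnmt1, Uhrf1 and Hells have Prmt5sKO points on or around the Ctrl points, and the other 7 genes have both Prmt5sKO points to the right of them.

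The genes with the most similar pattern over the 4 libraries were found by the distance between centred log2 levels (root mean square), among 10254 or 10255 genes with a mean of at least 100 normalized counts. Nearest to Dnmt1 were Ncapg2, Mcm5 and Chek1 (distances 0.0349 to 0.0389). For Uhrf1 they were Cdc45, Orc1 and Mcm5 (0.0241 to 0.0461), and for Hells Atad2, Lyar and Cachd1 (0.0278 to 0.0488). Tet3 was nearest to Slc39a6, Kif2c and Pole2, Tet1 to Pgam5, Smarca4 and Wdr83, Tet2 to Pcnx, Pi4kb and Cox7a2. For Dnmt3a the nearest genes were Dicer1, Pithd1 and Lrch2, for Dnmt3b Guf1, Slc1a4 and Rpl30, for Uhrf2 Ibtk, Rassf8 and Luc7l, and for Tdg Ddx49, Fgfr1op and Ints10. Many genes lie this close with 4 libraries, so the names are a description.

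Of 12 genes that work beside the methyltransferases 10 were tested, since Dnmt3l and Dppa3 had no row, and 7 of the 10 were lower in both Prmt5sKO libraries (23.6% of all genes tested). Of these, 5 had an unadjusted p under 0.05 (limma-voom; 6.95% of all genes in this direction), and 0 of the 10 were higher in both (25.2% of all genes). The median log2 fold change was -0.54. Cdca7l, at 478 and 460 normalized counts in Ctrl and 160 and 157 in Prmt5sKO libraries, had a log2 fold change of -1.56 ± 0.27 (SE). Its relative Cdca7, the partner through which HELLS is recruited to chromatin, had 782 and 1420 against 438 and 294. Lig1, the ligase of Okazaki fragments, had 2304 and 3150 against 1156 and 1151, and the corepressor Trim28 had 9589 and 9729 against 5599 and 5654. The deubiquitinase gene Usp7, whose product acts on DNMT1 and UHRF1, had 3099 and 3856 against 2236 and 2195. Pcna, the sliding clamp that DNMT1 binds, had 2592 and 2555 normalized counts in Ctrl and 2638 and 1377 in Prmt5sKO libraries, so its groups overlapped.

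Genes for readers of methylated CpG and their relatives, some of which, such as MBD3, do not bind the methyl mark selectively, were spread around 0, with a median of -0.08; 4 of 10 were lower in both (23.6% of all genes tested) and 3 higher in both (25.2%). Mbd3, a subunit of the NuRD complex, was the single one with an unadjusted p under 0.05 in limma-voom (6.95% of all genes in this direction). It had 2795 and 2797 normalized counts against 1093 and 1650, a log2 fold change of -1.06. Zbtb4 (0.66), Mbd2 (-0.40) and Mbd6 (-0.54) had the next smallest p, and Mbd4, a glycosylase that acts on mismatches in CpG, was at -0.11.

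In the list of base excision repair and Gadd45 genes, 6 of 13 were lower in both (23.6% of all genes tested) and 4 higher in both (25.2%), with a median of -0.13. Ung, which removes uracil from DNA, had 357 and 354 normalized counts in Ctrl and 69.6 and 122 in Prmt5sKO libraries, which is a log2 fold change of -1.99 ± 0.37 (SE), and Neil3 had 200 and 254 against 82.2 and 92.5. Polb, the repair polymerase that fills the gap after TDG, had 250 and 254 against 569 and 365, a log2 fold change of 0.88 ± 0.33 (SE), and Lig3 was at -0.51. Apex1, at 367 and 580 against 415 and 282, overlapped, and Smug1 was at -0.44 ± 0.26 (SE). Gadd45a had 269 and 179 normalized counts in Ctrl and 358 and 1171 in Prmt5sKO libraries, with the high value in the library with the high differentiation genes, and Gadd45b was at 0.25 ± 0.32 (SE).

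The methyl donor of these reactions is made in the S-adenosylmethionine and folate cycles. There 6 of 13 genes were lower in both (23.6% of all genes tested) and 2 higher in both (25.2%), with a median of -0.25. Shmt1 had 1434 and 1734 normalized counts against 718 and 607, a log2 fold change of -1.25 ± 0.22 (SE), and Shmt2 had 4628 and 5706 against 3043 and 2474. Ahcyl1 was at -0.67. Mat2a, which makes the donor, was at -0.14 ± 0.20 (SE) and Ahcy, which removes its product, at -0.32 ± 0.32 (SE), both with overlapping groups.

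For the supply of 2-oxoglutarate and its competitors succinate and fumarate, 3 of 15 genes were lower in both (23.6% of all genes tested) and 3 higher in both (25.2% of all genes), with a median of -0.14. Idh1 had 516 and 523 normalized counts in Ctrl and 715 and 1064 in Prmt5sKO libraries, which is a log2 fold change of 0.74 ± 0.28 (SE). It was the only one in the list with an unadjusted p under 0.05 (limma-voom, 6.01% of all genes in this direction). Idh2 had 4730 and 4107 against 2177 and 4031 and was at -0.57 ± 0.32 (SE). Glud1 was at -0.31.

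Genes of the germline whose promoters are known to be methylated in body cells serve as a readout list. Of 16 such genes 7 had a row, and 4 passed the filter. Brdt had 10.2 and 27.2 normalized counts in Ctrl and 32.6 and 58.3 in Prmt5sKO libraries, and Sohlh2 had 0 and 3.89 against 5.93 and 22.1. Tdrd1 had 11.3 and 0 against 7.41 and 3.02, and Taf7l 37.3 and 11.7 against 17.8 and 4.02. Brdt and Sohlh2 were higher in both (25.2% of all genes tested), the unadjusted p of limma-voom was above 0.05 for all 4, and what difference these counts could show was not tested; methylation itself was not measured in this series.

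**Figure D5:**
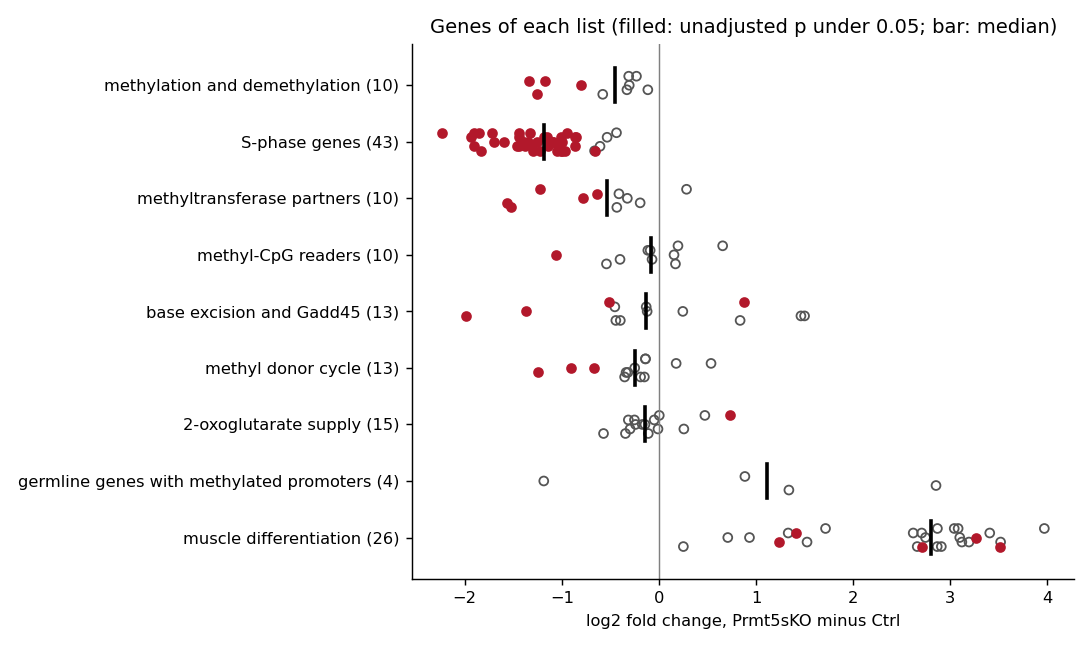
Log2 fold change (horizontal axis, Prmt5sKO minus Ctrl) of each gene tested in the 10 methylation genes and 8 lists, with the number of genes in parentheses; filled points have an unadjusted p under 0.05 and the bar is the median. The medians are -1.18 for S-phase genes, -0.54 for methyltransferase partners and -0.45 for the 10 genes, and 2.81 for muscle differentiation.

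The muscle differentiation list is given because it set 1 library apart. Of its 26 genes 18 were higher in both Prmt5sKO libraries (25.2% of all genes tested), 5 with an unadjusted p under 0.05 (limma-voom; 6.01% of all genes in this direction): Myog, at 1436 and 1189 normalized counts in Ctrl and 3707 and 19508 in Prmt5sKO libraries, Acta1, Mylpf, Tnnt2 and Neb. The median log2 fold change was 2.81, and 0.82 without the shallower Prmt5sKO library. Within the Prmt5sKO group the median log2 difference, shallower minus deeper, was 3.77 for these genes and -0.09 for the 10 methylation genes. Single methylation genes differed in both directions, from -0.51 (Hells) to 0.59 (Tet2). Of the satellite cell markers, Pax7 was at 0.01 ± 0.24 (SE), Myod1 at -0.04 ± 0.24 (SE) and Myf5 at -0.41. Cd34 at 2.32 was the only one of 10 with an unadjusted p under 0.05 in limma-voom (6.01% of all genes in this direction). The part of differentiation in the levels of the 10 genes was not tested.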

How the data were processed

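RNA-seq of 2 Ctrl and 2 Prmt5sKO libraries of cultured MuSC was analysed. The authors trimmed Ion Torrent reads with Reaper, aligned them with STAR 2.4.0a to GRCm38, assigned them to genes and used DESeq2 for the comparison. What the authors deposited as signal values are group means of counts divided by size factors; their fold changes and p-values were not used. A group mean adds whole multiples of 1 step for each of its 2 libraries, and from these steps the counts per library were recovered for 100% of the 20065 genes (largest relative residual 5.4e-15). Recovery and test were checked on simulated data. Groups were compared with limma-voom (limma 3.58.1, R 4.3.3) on the 4 libraries with no covariate, own TMM code with trims of 30% and 5%, and genes with a mean of 5 or more normalized counts. Symbols and coordinates are those of GENCODE M21 (19782 identifiers matched); promoters are those of RefSeq. The 10 members and all gene lists were chosen with earlier results of these data known. Named are all members, Prmt5, up to 4 genes per list with the smallest p, a few fixed partner genes, the 3 nearest genes per member and, chosen after their values were seen, Xist, further markers and the other differentiation genes. A few of the genes so named are not reported here. There were 14 alternatives, covering scaling, filter, test, pairing and each library left out. Depth was 13240754 to 20047430 reads; with 2 libraries a group, precision is set by their spread. Ribosomal-type transcripts took 4.74% and 12.3% of Ctrl and 1.20% and 1.94% of Prmt5sKO reads, which bears on scaling by library size.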

Additional observations from a re-analysis of the deposited data

How the results depend on the processing

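All 10 log2 fold changes of the members were negative under the 14 alternatives, except that of Tet2, which ranged from -0.39 to 0.20 with 1 library left out and was 0.20 without the deeper Prmt5sKO library. Between 6 and 9 members were lower in both Prmt5sKO libraries; the 6 came with scaling by library size only, which moved the median of all genes to 0.13. Under library size only, the medians were -0.34 for the members, 0.026 for methyl-CpG readers, -0.43 for methyltransferase partners, -0.018 for base excision and Gadd45 genes and 1.23 for the germline genes. Limma-trend with a pseudocount of 5 CPM gave -0.32 for the members, -1.03 for S-phase genes and 0.094 for the germline genes, and a pseudocount of 0.5 gave 0.55 for the last. The germline median was 0.92 with no filter, and with a minimum mean of 50 it had no gene left, while the base excision median was then -0.26. With each library left out in turn, medians ranged from -0.53 to -0.43 for the members, -0.15 to 0.040 for readers, -0.71 to -0.46 for partners, -0.35 to -0.060 for the methyl donor cycle, 0.45 to 1.80 for the germline genes and -1.30 to -1.10 for S-phase genes. In the same fits 0 to 489 genes were called: 489 without the deeper and 55 without the shallower Prmt5sKO library, and 0 without either Ctrl library. The members higher in both numbered 0 to 1, the 1 being Tet2. With no replicate number given for a library, a replicate block was fitted for either pairing; the crossed one also joins libraries with like Xist. With the deeper libraries paired, 0 genes were called and the germline median was 0.71; with the crossed pairing, 346 were called and it was 0.73, and Dnmt1, Uhrf1, Hells and Prmt5 had an adjusted p of 0.0324, 0.0275, 0.0401 and 0.0110 in limma-voom. Deviations of the paired libraries correlated at -0.30 (deeper paired) and 0.30 (crossed) over 11487 genes. With 2 libraries a group the second value is the first with its sign turned, so they are not separate results. The cause of these changes was not tested. At 46 to 70 reads, Dnmt3b is the member most limited by depth.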
